A study of Mus musculus with 14 samples.

Results

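The immunoglobulin constant region genes were followed in CT26 tumors: 8 heavy chain genes (Ighm, Ighd, Ighg1, Ighg2b, Ighg2c, Ighg3, Igha, and Ighe), the kappa light chain gene Igkc, and Jchain, which encodes the joining chain of polymeric antibody. These 10 genes were picked by symbol out of 53801 Ensembl genes with a value in each tumor, and all 10 had an identifier in the annotation. CT26, a Balb/c colon carcinoma line, here carried DNA barcodes, and 250000 cells were placed under the skin of each flank of female Balb/c mice aged 6 to 8 weeks. From day 7 the mice received control IgG or anti-PD-1, at 200 μg every 3 days for 5 doses, and tumors were taken 3 days after the last dose. The anti-PD-1 tumors were divided by the study into responders and non-responders by their size at the end of treatment. Bulk RNA-seq covered 5 control IgG tumors from 4 mice (14L, 14R, 16R, 17R, and 20R), 5 responders from 4 mice (24L, 26R, 30L, 30R, and 35L), and 4 non-responders from 3 mice (29L, 32R, 33L, and 33R). L and R are the left and right flank, so 3 mice (14, 30, and 33) gave both of their tumors, in the same group each time.

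A B cell first makes IgM, and IgD by alternative splicing of the same transcript. Class switch recombination then joins the same variable region to a constant gene further along the heavy chain locus, and the cell makes IgG, IgA, or IgE. Each heavy chain gene is transcribed in a membrane form, which serves as the B cell receptor, and a secreted form, which dominates in plasma cells. Kappa is the light chain of most mouse antibodies, whatever their heavy chain.

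The 8 heavy chain genes lay on chromosome 12 of mm10, all on the minus strand, in the order Ighm (chr12:113418558-113422730), Ighd (chr12:113406604-113416324), Ighg3 (chr12:113356224-113361232), Ighg1 (chr12:113325240-113330523), Ighg2b (chr12:113302965-113307933), Ighg2c (chr12:113285325-113288932), Ighe (chr12:113269260-113273248), and Igha (chr12:113254830-113260236). Igkc lay at chr6:70726435-70726966 on the plus strand, and Jchain at chr5:88519809-88527891 on the minus strand. The IgG subclasses differ most visibly in the hinge, the short stretch between the antigen-binding arms and the Fc part, where cysteines link the 2 heavy chains. The hinge exons (exon 2 of each gene, minus strand, mm10 with GENCODE vM21 transcripts) are shown because they tell apart the IgG genes whose counts are compared. Capitals mark in-frame cysteine codons.
Ighg1, chr12:113329844-113329882: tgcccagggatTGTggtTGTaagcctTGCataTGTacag
Ighg2b, chr12:113307261-113307326: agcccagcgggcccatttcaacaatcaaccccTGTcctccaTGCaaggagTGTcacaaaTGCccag
Ighg2c, chr12:113288263-113288325: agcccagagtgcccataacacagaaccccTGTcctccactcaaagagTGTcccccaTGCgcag
Ighg3, chr12:113360529-113360576: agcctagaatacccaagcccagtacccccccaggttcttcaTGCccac
The exons were 39, 66, 63, and 48 bases long, with 4, 4, 3, and 1 cysteine codons.

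Over the whole coding sequence of the secreted form, Ighg2b and Ighg2c were the closest pair, with 86.3% of aligned bases identical and a longest shared run of 78 bases. The other pairs of IgG genes were between 76.1% and 78.5% identical. Of all windows of 75 bases in the secreted transcripts, 0.577% in Ighg2b and 0.579% in Ighg2c were found in another of the 10 genes, and none in the other 8. RSEM divides a fragment that matches several genes among them, which leaves counts that are not whole. Of the 140 values (10 genes in 14 tumors), 136 were whole to within 1e-06, and the 4 others were Ighg2b and Ighg2c in responders 24L and 26R, so the split between these 2 genes is uncertain there. The reference is of C57BL/6 mice, which carry Ighg2c where Balb/c mice carry Ighg2a, and the annotation held 0 genes named Ighg2a. Counts listed under Ighg2c, and part of those under Ighg2b, may therefore be reads of Balb/c Ighg2a, and reads of the other constant genes also met alleles of another strain. How many reads were lost or moved by this was not tested.

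Antibodies that form polymers with the J chain end in a secretory tail with a cysteine near its end, which IgG lacks. The tails of the secreted transcripts (minus strand, mm10, from the last shared splice site to the stop codon, with the cysteine codon in capitals) are shown because Jchain is compared with the other chains.
Ighm, chr12:113420867-113420928: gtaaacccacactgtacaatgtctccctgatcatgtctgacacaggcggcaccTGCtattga
Igha, chr12:113258768-113258829: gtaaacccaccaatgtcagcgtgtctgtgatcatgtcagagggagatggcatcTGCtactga
Ighg1, chr12:113328976-113328983: gtaaatga
The tails of Ighm and Igha were 62 bases each with 1 cysteine codon, and the matching end of Ighg1 was 8 bases with 0.

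The totals of expected counts, RSEM's estimates of fragments for each gene, were between 33237744 and 48481461. CPM (counts scaled by library size, with TMM factors) was used to compare 1 gene between tumors, and TPM, which is divided by transcript length, to compare genes. A count of 3, taken as the smallest detectable, was at most 0.0903 CPM. Counting intervals cover counting error only. In bulk tumors, fewer cells of a type and less RNA per cell cannot be told apart. Of 8 T cell genes, 7 were also called higher in responders than in non-responders (edgeR, adjusted p under 0.05), as were 5.08% of all genes tested. The summed levels of the 8 were 55.6 to 103 CPM against 31.7 to 39.3 CPM, and no value of the genes below was adjusted for this. Among epithelial markers of the line, Krt20 averaged 381 ± 54.8 CPM over the 5 responders (SD) and 328 ± 118 CPM over the 4 non-responders, while Vil1, a marker of intestinal epithelium, was at the floor, with means of 0.0712 ± 0.0636 and 0.0856 ± 0.0255 CPM. Of the 7 tested genes of that list, 0 were called between responders and non-responders (edgeR, 1 at an unadjusted p under 0.05). In that comparison Krt8 (log2 fold change -0.62), Krt18 (-0.16), and Cdx2 (-1.8, adjusted p = 0.0634) were lower in responders. Krt20 (0.22), Cdh1 (0.07), Epcam (0.09), and Lgals4 (0.02) were higher. Against control tumors 1 was called, the intestinal factor Cdx2, which was lower in responders (0.148 ± 0.185 against 0.570 ± 0.0970 CPM, log2 fold change -1.97, SE 0.55, adjusted p = 0.0303). There Krt8 (-1.67), Krt18 (-0.26), Cdh1 (-0.38), and Epcam (-0.497) were also lower, and Lgals4 (0.302) and Krt20 (0.47) higher, without a call. Skin and muscle genes varied by tumor, from 7.86 to 984 CPM and from 22.7 to 1153 CPM in sum, without a called difference between groups, and their part in the values below was not tested.

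Responders carried more immunoglobulin RNA than either other group, and IgG1 and kappa made up most of the difference. Responders averaged 33.8 ± 24.0 CPM of Ighg1, non-responders 1.78 ± 1.12, and control tumors 2.58 ± 2.04 (mean ± SD, n = 5, 4, and 5). Igkc was 27.2 ± 16.0, 2.83 ± 1.28, and 2.60 ± 1.80 CPM in the same groups. Ighm differed far less, at 31.0 ± 6.75, 19.2 ± 2.34, and 20.6 ± 2.39 CPM. The ratio of mean CPM between responders and non-responders was 19.0 for Ighg1, 9.59 for Igkc, and 1.62 for Ighm.

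**Figure D1:**
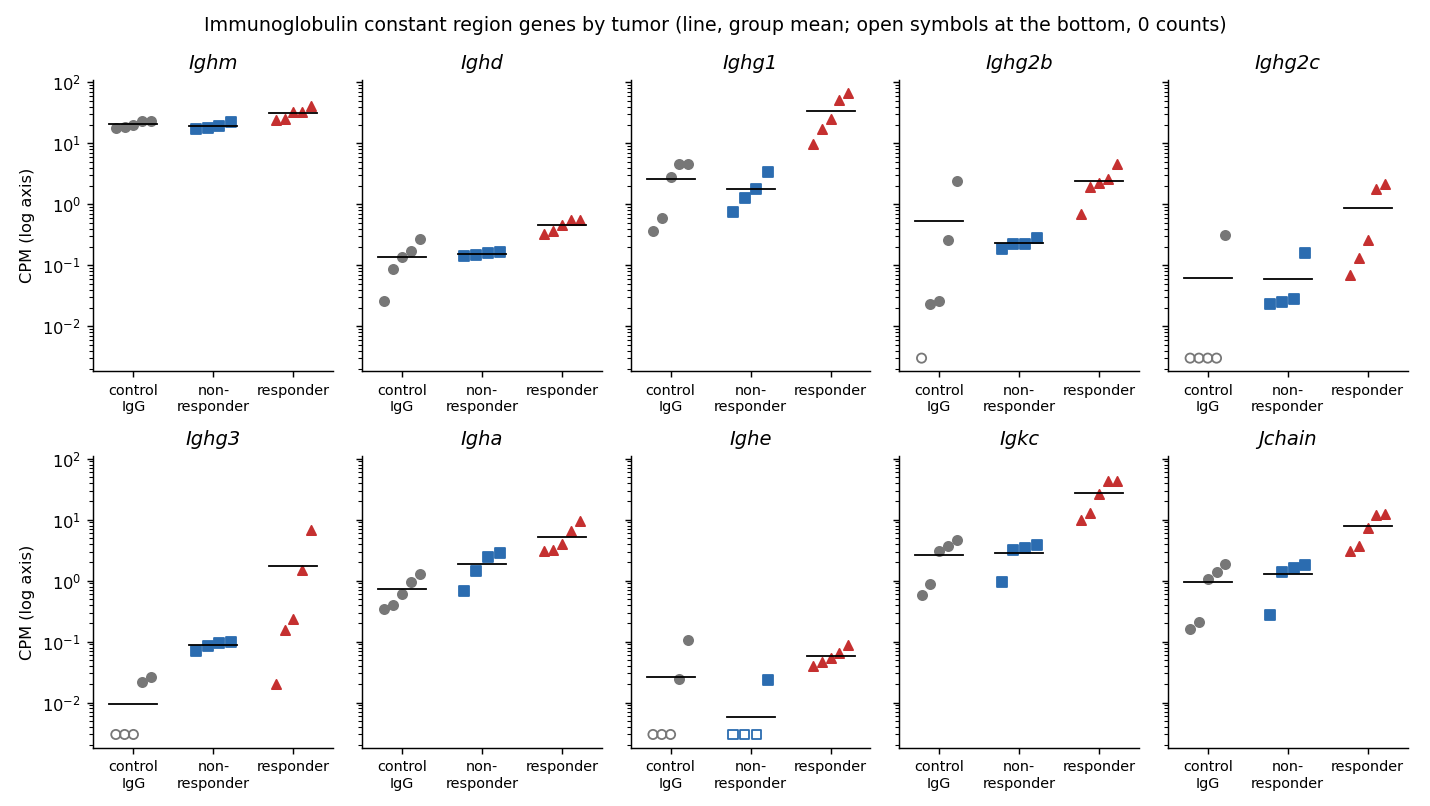
CPM of the 10 genes in each tumor on a log axis, with control IgG tumors as circles, non-responders as squares, responders as triangles, group means as lines, and tumors with 0 counts as open symbols at the bottom. The 5 responders lie above all other tumors for Ighm, Ighd, Ighg1, Igha, Igkc, and Jchain, with Ighm between 23.9 and 40.7 CPM and Ighg1 between 9.65 and 66.8 CPM.

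Of the 10 genes, 8 passed edgeR's filter on low counts and were tested, and Ighg3 and Ighe did not. Between responders and non-responders, 5 of the 8 were called (adjusted p under 0.05), all higher in responders. Of the 16287 genes tested, 9.90% were called in this comparison, 5.08% higher and 4.82% lower in responders. Between responders and control tumors, 6 of 8 were called, all higher, and of all genes 13.2% were called, 7.88% higher and 5.30% lower. In 7 of the 8 every responder was above every non-responder, as in 6.80% of all genes, and in 6 of the 8 every responder was above every control tumor, as in 8.34%. Between non-responders and control tumors, 0 were called, as were 0% of all genes (edgeR, with 758 genes or 4.65% at an unadjusted p under 0.05, among them Igha, and 0 of these 8 genes called under every other tool and setting run). Genes of low level such as Ighd and Ighg2c could pass the filter mainly through the responders, so these counts describe the genes and do not stand as a test of them as a list. The median log2 fold change of all genes was 0.006, -0.011, and 0.006 in the 3 comparisons. The control tumors serve both comparisons with them, and the responders both of theirs, so the 3 sets of values are not independent.

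**Figure D2:**
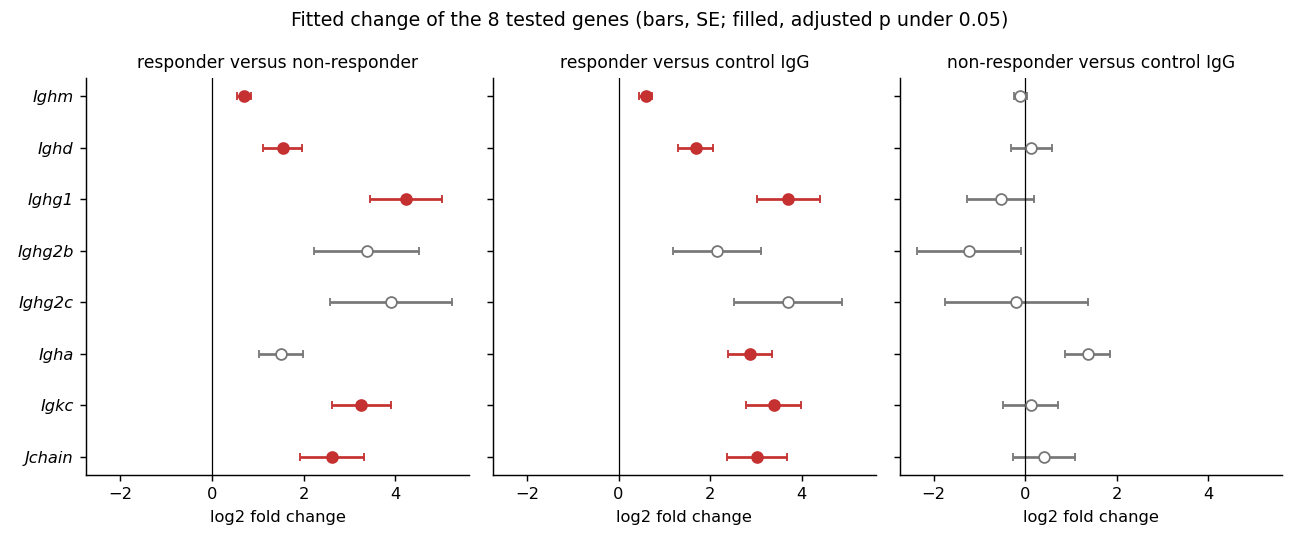
Fitted log2 fold change of the 8 tested genes in the 3 comparisons, with bars of 1 SE; filled points have an adjusted p under 0.05. Estimates for responders run from 0.70 (Ighm) to 4.24 (Ighg1) against non-responders and from 0.59 (Ighm) to 3.71 (Ighg2c) against control tumors, and those for non-responders against control tumors lie on both sides of 0.

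Ighm was the most abundant heavy chain gene in every control tumor and every non-responder. Ighm was at 23.0, 19.9, 18.7, 23.2, and 18.1 CPM in control tumors 14L, 14R, 16R, 17R, and 20R. It was at 22.3, 17.0, 19.5, and 17.8 CPM in non-responders 29L, 32R, 33L, and 33R, and at 33.0, 23.9, 25.3, 40.7, and 32.0 CPM in responders 24L, 26R, 30L, 30R, and 35L. The lowest responder, 26R, was only just above the highest control tumor, 17R, but the groups did not overlap. The log2 fold change was 0.70 (SE 0.15, adjusted p = 0.0142) against non-responders and 0.59 (SE 0.14, adjusted p = 0.0123) against control tumors. Against non-responders the call was lost with 1 tumor per mouse (adjusted p = 0.0545). Ighd, the partner of Ighm on naive B cells, was close to the floor outside responders, with 1 to 11 counts in a tumor. The means were 0.452 ± 0.106 CPM for responders (n = 5), 0.153 ± 0.00920 for non-responders (n = 4), and 0.137 ± 0.0902 for control tumors (n = 5), and no responder fell within the range of the others. Its log2 fold changes were 1.54 (SE 0.42, adjusted p = 0.0348) and 1.68 (SE 0.39, adjusted p = 0.0122). The first of these depended on single tumors, since it was lost when any of 7 of the 9 tumors was left out (adjusted p up to 0.0813), and it was also lost with no filter on low counts (0.0560) and with 1 tumor per mouse (0.106). The second was lost with limma on log2 of TPM + 1 (adjusted p = 0.0784) and TPM + 0.1 (0.0812).

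IgG1, the main IgG subclass of responses driven by interleukin-4 in mice, had the largest estimate against non-responders. Ighg1 was at 66.8, 50.6, 24.9, 9.65, and 17.3 CPM in responders 24L, 26R, 30L, 30R, and 35L. Non-responders 29L, 32R, 33L, and 33R were at 3.34, 0.741, 1.78, and 1.27 CPM. Control tumors 14L, 14R, 16R, 17R, and 20R were at 2.84, 4.57, 0.368, 4.53, and 0.594 CPM. Responder 30R was the lowest of its group and still above every tumor of the other groups. The log2 fold change was 4.24 (SE 0.79, adjusted p = 0.00962) against non-responders and 3.70 (SE 0.69, adjusted p = 0.00384) against control tumors, and both calls held in every alternative run. Against control tumors non-responders gave -0.54 (SE 0.73, adjusted p = 0.932).

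IgG2 subclasses were lower and more scattered. Ighg2b was at 2.61, 2.27, 4.54, 0.695, and 1.94 CPM in responders 24L, 26R, 30L, 30R, and 35L, and at 0.224, 0.185, 0.283, and 0.222 CPM in non-responders 29L, 32R, 33L, and 33R. Control tumors were at 0.256, 0, 0.0263, 2.39, and 0.0229 CPM, so that 17R stood within the responders and the other 4 below them. The log2 fold change was 3.38 (SE 1.15, adjusted p = 0.0724) against non-responders, which did not pass. It passed in 5 of 10 alternatives: DESeq2 (adjusted p = 0.0410), edgeR on only the groups compared (0.0152), voom with mouse as a random effect (0.0219), and limma on log2 of TPM + 1 (0.0205) or TPM + 0.1 (0.0359). The voom fit had a correlation within mice of -0.282, so it is not a stricter check for shared animals. Against control tumors it was 2.15 (SE 0.96, adjusted p = 0.157), and without 17R it was 5.05 (adjusted p = 0.00296), and 3 of 10 other alternatives (voom and both TPM fits) also called it.

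Ighg2c, the gene that stands for IgG2a or IgG2c in mm10, did not pass edgeR's test over all 14 tumors. It was at 0.0694, 1.75, 2.17, 0.258, and 0.131 CPM in responders 24L, 26R, 30L, 30R, and 35L, that is, 3 to 82 counts. Non-responders 29L, 32R, 33L, and 33R had 0.0249, 0.0232, 0.0283, and 0.158 CPM, and of the control tumors only 17R had any, at 0.313 CPM. The groups overlapped, with 24L below 33R. The log2 fold changes were 3.90 (SE 1.33, adjusted p = 0.0744) and 3.71 (SE 1.18, adjusted p = 0.0511). The second was close to the threshold and passed with voom (adjusted p = 0.0225), with a gene length offset (0.0391), and in edgeR without 24L (0.0467) or without 35L (0.0419).

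Ighg3 was high in few tumors. It had 232 counts (6.76 CPM) in responder 26R and 65 counts (1.5 CPM) in responder 24L. The 3 other responders had 9, 1, and 7 counts in 30L, 30R, and 35L, non-responders 3 or 4, and control tumors 0 or 1. By two-sided exact permutation tests of CPM, adjusted over 6 tests of Ighg3 and Ighe, responders and control tumors differed by 1.73 CPM (p = 0.0238, adjusted p = 0.0476), and without 26R by 0.469 CPM (adjusted p = 0.0952). The call was lost when any tumor but 14R or 30R was left out (adjusted p 0.0635 to 0.0952) and with the tumors of each mouse averaged (adjusted p = 0.0857). Responders and non-responders differed by 1.65 CPM (exact p = 0.127, adjusted p = 0.190), which passed without 30R (adjusted p = 0.0429). Non-responders and control tumors differed by 0.0778 CPM (exact p = 0.0159, adjusted p = 0.0476) between levels of 0 to 4 counts, about the floor, and this call was lost when any tumor but 14R was left out.

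IgE was at the limit of detection. Ighe had 2, 3, 2, 2, and 3 counts in responders 24L, 26R, 30L, 30R, and 35L. It had at most 1 count in a non-responder and 5 counts in control tumor 14R, with 0 or 1 in the other control tumors. Responders and non-responders did not overlap and differed by 0.0525 CPM (exact permutation p = 0.0159, adjusted p = 0.0476), but every tumor of both groups was at or under the floor of 3 counts, and the call was lost when any tumor but 30R was left out or the tumors of each mouse were averaged (adjusted p up to 0.0857).

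IgA differed between responders and control tumors. Igha was at 9.46, 3.21, 6.60, 4.05, and 3.07 CPM in responders 24L, 26R, 30L, 30R, and 35L. Non-responders 29L, 32R, 33L, and 33R were at 1.44, 0.672, 2.89, and 2.47 CPM, and control tumors 14L, 14R, 16R, 17R, and 20R at 0.596, 1.28, 0.394, 0.965, and 0.343 CPM. The non-responders lay between the other groups, with the highest, 33L, just below the lowest responder, 35L. The log2 fold change against control tumors was 2.87 (SE 0.47, adjusted p = 0.00210). Against non-responders it was 1.5 (SE 0.48, adjusted p = 0.0606), and it passed in DESeq2 (adjusted p = 0.0115), voom (0.0280), both TPM fits (0.0204 and 0.0307), with a gene length offset (0.0409), and without 33L (0.0474). Igha was the gene of this family with the lowest unadjusted p between non-responders and control tumors (0.0135, log2 fold change 1.37, SE 0.49), which did not survive adjustment (adjusted p = 0.931).

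The kappa chain and the J chain moved with IgG1. Igkc was at 43.8, 42.9, 26.0, 10.01, and 13.0 CPM in responders 24L, 26R, 30L, 30R, and 35L. It was at 3.79, 0.950, 3.43, and 3.17 CPM in non-responders 29L, 32R, 33L, and 33R, and at 3.10, 3.72, 0.578, 4.70, and 0.891 CPM in control tumors 14L, 14R, 16R, 17R, and 20R. No responder overlapped with the rest, and 16R, 20R, and 32R were the lowest of all. The log2 fold change was 3.26 (SE 0.64, adjusted p = 0.0114) against non-responders and 3.38 (SE 0.59, adjusted p = 0.00267) against control tumors, called in every alternative. Jchain was at 12.6, 12.1, 7.21, 3.06, and 3.73 CPM in the responders, at 1.62, 0.278, 1.36, and 1.81 CPM in the non-responders, and at 1.05, 1.90, 0.210, 1.37, and 0.160 CPM in the control tumors, in the same order. Its log2 fold changes were 2.62 (SE 0.70, adjusted p = 0.0332) and 3.03 (SE 0.66, adjusted p = 0.00860). The call against non-responders was lost when any of 5 of the 9 tumors (24L, 26R, 32R, 33L, or 33R) was left out, with an adjusted p up to 0.0826. Non-responders and control tumors did not differ for Igkc (log2 fold change 0.12, SE 0.60, adjusted p = 0.977) or Jchain (0.41, SE 0.68, adjusted p = 0.937) by more than the spread between tumors.

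Kappa was used far more than lambda in all 14 tumors. The Iglc genes together had 1 to 80 counts in a tumor, too few to be tested. Of the light chain constant counts, Igkc took 94.9% to 98.8% among responders, 87.2% to 96.2% among non-responders, and 88.0% to 97.5% among controls. The lowest share, in 32R, rested on 41 kappa and 6 lambda counts (95% Wilson interval 74.8% to 94.0%), and the highest, in 26R, on 1472 and 18 (98.1% to 99.2%).

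Per length, Ighm led the heavy chains in 5 of 5 control tumors, 4 of 4 non-responders, and 2 of 5 responders. Ighm took 79.1%, 66.7%, 93.4%, 62.6%, and 91.0% of the heavy chain TPM in control tumors 14L, 14R, 16R, 17R, and 20R, and 72.4%, 85.1%, 69.8%, and 71.7% in non-responders 29L, 32R, 33L, and 33R. In responders 24L, 26R, 30L, 30R, and 35L it took 19.9%, 18.5%, 28.4%, 62.4%, and 46.2%. Each of the responders had a share below every tumor of the other groups, with 30R only just below control tumor 17R. Since shares sum to 100%, a fall of one gene is a rise of the others. The IgG genes together took 56.0% ± 20.1 of the sum for responders (SD, n = 5), against 13.1% ± 4.75 for non-responders (n = 4) and 16.6% ± 12.4 for control tumors (n = 5), and 30R (27.0%) lay below 17R (32.0%). Within IgG, Ighg1 was 87.3% ± 6.31, 80.0% ± 8.42, and 87.8% ± 14.2. The IgA share averaged 8.40% ± 3.10, 11.5% ± 5.88, and 3.99% ± 1.67 in these 3 groups, that is, most in non-responders, whose range overlapped with both others.

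**Figure D3:**
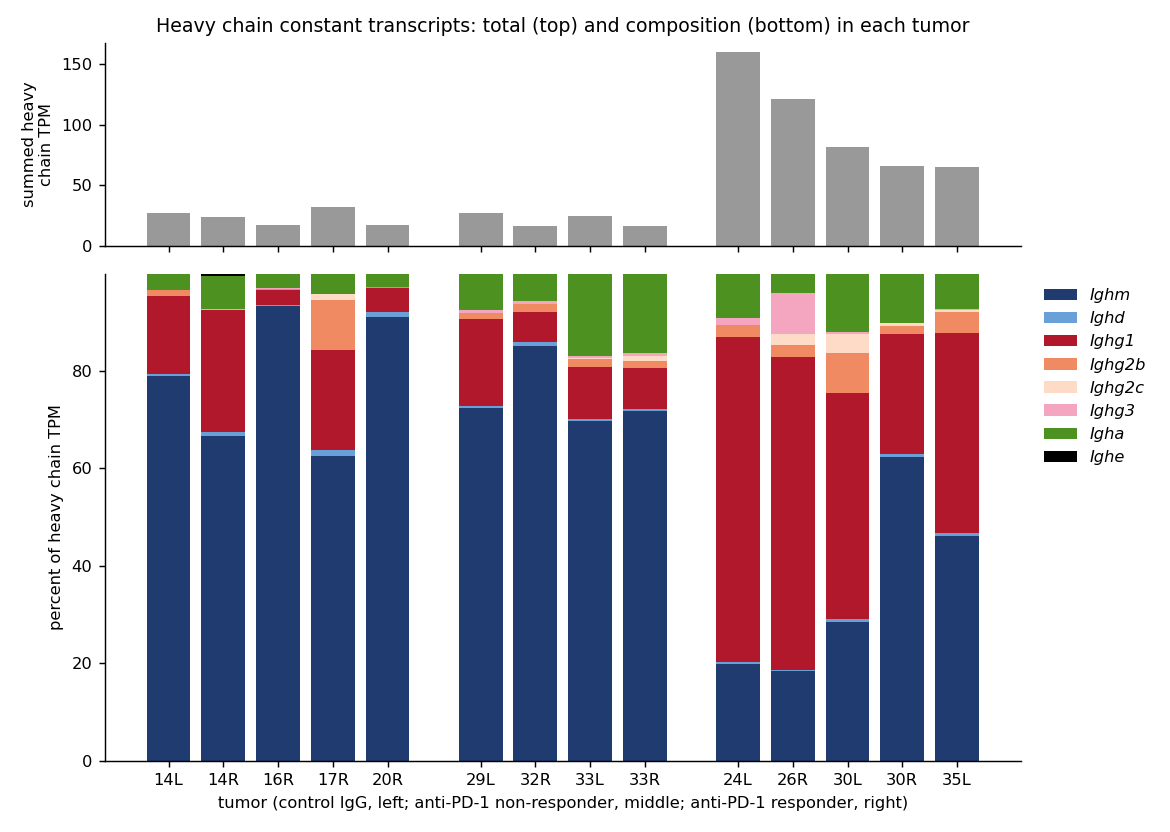
Summed TPM of the 8 heavy chain constant genes (top) and the percent of each gene in that sum (bottom), for each tumor by group. The sum ran from 64.9 to 160 TPM for responders, from 15.9 to 26.6 TPM for non-responders, and from 16.7 to 32.1 TPM for controls; Ighm (dark blue) fills most of the bar outside responders and Ighg1 (dark red) leads in 3 responders.

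As levels in TPM, the responders ranked Igkc (132 ± 76.8), Ighg1 (53.0 ± 38.0), Ighm (29.6 ± 7.50), Jchain (8.66 ± 5.01), Igha (8.01 ± 4.17), Ighg2b (3.54 ± 2.0), Ighg3 (2.63 ± 4.40), Ighg2c (1.29 ± 1.47), Ighd (0.404 ± 0.133), and Ighe (0.0660 ± 0.0207). Of the neighbors in this order, Ighg1 and Ighm, Jchain and Igha, Ighg2b and Ighg3, Ighg3 and Ighg2c, and Ighg2c and Ighd differed by less than the larger of their SDs. In non-responders the order began with Ighm (15.4 ± 3.55) and Igkc (12.0 ± 5.93), followed by Ighg1 (2.44 ± 1.71), Igha (2.41 ± 1.38), and Jchain (1.19 ± 0.618), and of these neighbors all but Igkc and Ighg1 differed by less than the larger of their SDs. In control tumors Ighm (17.8 ± 2.77) and Igkc (11.4 ± 7.84) also came first, then Ighg1 (3.66 ± 2.85), Igha (0.966 ± 0.507), and Jchain (0.956 ± 0.737).

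The ratio of Ighg1 to Ighm was tested as 1 value per tumor, log2 of TPM with 0.1 added to both. Responders had a mean of 0.55 ± 1.33 (n = 5), non-responders -2.83 ± 0.69 (n = 4), and control tumors -2.81 ± 1.49 (n = 5). The difference was 3.38 against non-responders (two-sided exact permutation p = 0.0159, adjusted p = 0.0476 over 9 tests) and 3.35 against control tumors (exact p = 0.00794, adjusted p = 0.0476), both the smallest p that these numbers of tumors allow. With any 1 tumor left out the adjusted p was 0.0857 to 0.107 against non-responders and 0.0357 to 0.0857 against control tumors, with differences of 3.07 to 3.85 and 2.88 to 3.82, and 1 tumor fewer also raises the smallest p. With the tumors of each mouse averaged, neither call passed (adjusted p = 0.171 for both). Every responder was above every other tumor, from -1.33 in 30R to 1.79 in 26R, with the nearest, control tumor 14R, at -1.39. Non-responders and control tumors differed by -0.02 (exact p = 1, adjusted p = 1).

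The ratio of Jchain to Igkc was nearly constant among responders, at -3.90 ± 0.06 (n = 5), and higher in non-responders, at -3.27 ± 0.26 (n = 4). The difference was -0.63 (exact permutation p = 0.0159, adjusted p = 0.0476), with no overlap. It did not pass after adjustment with any 1 tumor left out (adjusted p 0.0857 to 0.107) or with the tumors of each mouse averaged (adjusted p = 0.171). The added 0.1 was not small beside Jchain in 32R (0.27 TPM), 16R (0.22 TPM), and 20R (0.16 TPM), and it raised their ratios. Without it 32R would lie within the range of the responders, so the lack of overlap rests on the added 0.1. Control tumors spanned -3.95 to -3.0 and overlapped with both (difference of responders from control tumors -0.42, exact p = 0.0556, adjusted p = 0.125). For Ighg2c to Ighg1, responders were at -5.78 ± 2.08, non-responders at -3.77 ± 1.24, and control tumors at -4.18 ± 1.45, and no difference passed (adjusted exact permutation p from 0.200 to 0.732). With Ighg2c at 0 in 4 control tumors, this ratio was set there by the added 0.1. In non-responders 29L, 32R, and 33L, Ighg2c was at 0.03, 0.03, and 0.04 TPM, also below the added 0.1. With 1 added in place of 0.1, Ighg2c to Ighg1 passed for responders against both groups, and Jchain to Igkc for responders against control tumors (exact permutation, adjusted p = 0.0238 each).

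Igkc followed the heavy chains other than Ighm. Over the 14 tumors Igkc spanned 2.63 to 214 TPM, an 81.5-fold range, and the summed TPM of the 7 other heavy chain genes spanned 1.16 to 128 TPM. The ratio of these 2 quantities stayed between 1.68 and 2.61 in all 14 tumors. Ighm spanned only 11.4 to 40.9 TPM, a 3.59-fold range, and tumors 16R, 20R, and 32R, with 22 to 41 counts of Igkc, still had 713 to 792 counts of Ighm. These ratios were computed after the values were seen and are given as a description. As Pearson correlations of log2 CPM over the 14 tumors, which share their libraries and include the difference between groups, Igkc was at 0.985 with Ighg1, 0.981 with Jchain, 0.881 with Igha, and 0.714 with Ighm.

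**Figure D4:**
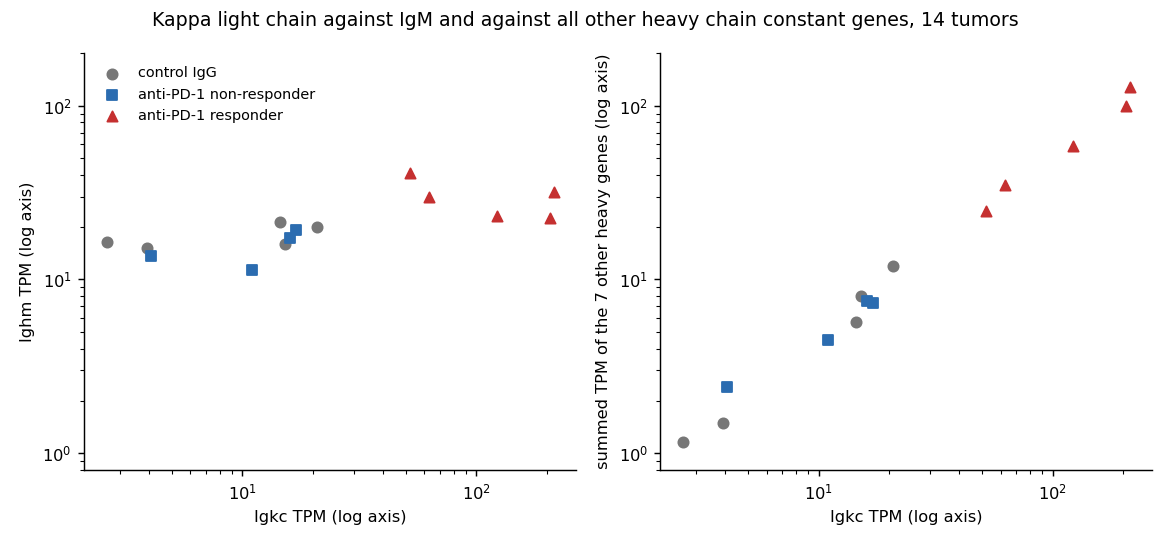
Ighm TPM (left) and the summed TPM of the 7 other heavy chain genes (right) on the y axis against Igkc TPM on the x axis, both axes log, 1 point per tumor, with control IgG as circles, non-responders as squares, and responders as triangles. The right panel forms a narrow line over an 81.5-fold range of Igkc, while Ighm in the left panel stays between 11.4 and 40.9 TPM.

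Outside the family, the 5 genes most like Igkc over the 14 tumors (by that correlation, immunoglobulin genes left out) were Mefv (0.946), which encodes pyrin, Cd226 (0.933), an activating receptor of T and NK cells, Cd7 (0.929), Gimap3 (0.927), and Cdc42ep2 (0.925). For Ighg1 they were Mefv (0.947), Slco4a1 (0.936), Gimap3 (0.934), Il18r1 (0.930), and Cd226 (0.930). For Ighm they were Rassf5 (0.971), Adgre1 (0.943), which encodes the macrophage antigen F4/80, Clec4a1 (0.938), Il16 (0.936), and Unc93b1 (0.935), and the 5 genes of Ighm shared no gene with the other 2 sets. Adgre1 itself averaged 152 ± 17.5 CPM over responders and 107 ± 16.4 CPM over non-responders (log2 fold change 0.51, adjusted p = 0.0132). The 6 other of the 7 macrophage markers were not called in that comparison, where 5.08% of all genes tested were called higher. Of the 7, 4 had an unadjusted p under 0.05 (edgeR). Their summed levels were 3672 to 4329 CPM in responders, 3115 to 4578 CPM in non-responders, and 2911 to 3533 CPM in control tumors.

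RSEM's gene length is the mean transcript length weighted by the estimated abundance of each transcript, so that a gene's division between its secreted and membrane forms can be read from it. This assumes that the authors' annotation, whose version is not given in the sources used here, held the same pair of transcripts with the lengths of GENCODE vM21. For Ighm the secreted transcript is 1493 bases and the membrane transcript 1698 bases. By this measure the membrane form was 45.9% to 58.4% of Ighm transcripts among responders, 54.2% to 60.9% among non-responders, and 47.0% to 62.3% among controls, and the groups overlapped. For Ighg1, with forms of 1076 and 2482 bases, the membrane form was at most 2.17% in any of the 14 tumors, and for Igha at most 3.92%. Ighd was the opposite, with a membrane form of 61.9% to 100% in the 5 responders, on 11 to 24 counts each, and of 20.2% in control tumor 17R, on 11 counts. These shares are estimates of RSEM and carry no error of their own.

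**Figure D5:**
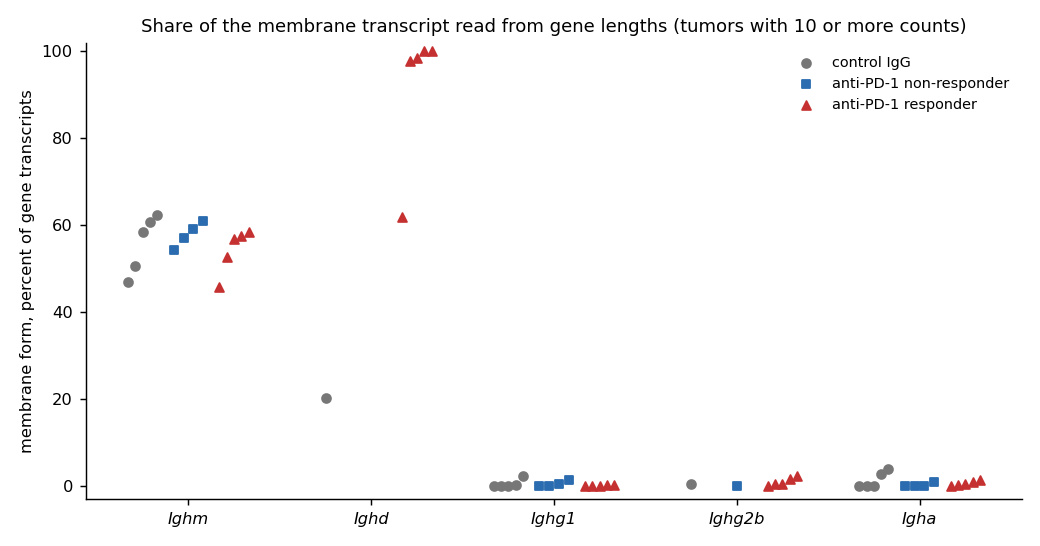
Percent of a gene's transcripts in the membrane form, read from RSEM's gene length, for each tumor with 10 or more counts of the gene, with the groups marked by shape and color. Ighm lies between 45.9% and 62.3% in every tumor of all 3 groups, Ighg1, Ighg2b, and Igha lie near 0, and Ighd is at 61.9% to 100% in responders.

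The 2 tumors of a mouse were not always alike. In responder mouse 30, the left tumor had 2.58 times the Ighg1, 2.60 times the Igkc, and 6.54 times the Ighg2b of the right tumor, while Ighm was 1.61 times higher in the right tumor. In non-responder mouse 33, left and right were at 1.78 and 1.27 CPM for Ighg1 and at 3.43 and 3.17 CPM for Igkc. In control mouse 14, they were at 2.84 and 4.57 CPM and at 3.10 and 3.72 CPM. There is 1 such mouse in each group, so no difference between groups was tested.

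Receptors that bind antibody were compared from a list of 7 IgG Fc receptor genes. Between responders and non-responders, 2 of 7 rose and 5 did not pass, with a median log2 fold change of 0.21, where 5.08% of all genes were called higher. Fcgr4, which encodes the activating receptor for IgG2 subclasses, averaged 99.1 ± 27.1 CPM over responders (n = 5) and 44.9 ± 8.39 CPM over non-responders (n = 4), a log2 fold change of 1.14 (SE 0.22, adjusted p = 0.0102). It also rose against control tumors (1.08, SE 0.20, adjusted p = 0.00412), alone of the 7. Trim21, a cytosolic receptor for antibody, rose by 0.68 (SE 0.20, adjusted p = 0.0423) against non-responders. Fcgr2b, the inhibitory receptor, had a log2 fold change of 0.07 (SE 0.13, adjusted p = 0.749), and Fcgrt, the neonatal receptor that spares IgG from breakdown, 0.03 (SE 0.12, adjusted p = 0.891). Of 6 genes for receptors and transport of the other isotypes, 2 were tested and 0 were called between responders and non-responders (edgeR, 0 at an unadjusted p under 0.05). Pigr, which carries polymeric IgA and IgM across epithelia, had 0 counts in both anti-PD-1 groups.

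Of 24 genes for class switching and its signals, 19 were tested, and 5 rose in responders against non-responders and 7 against control tumors, with median log2 fold changes of 0.31 and 0.22. Among all genes tested, 5.08% and 7.88% were called higher in these comparisons. Ifng, the cytokine that favors IgG2a or IgG2c and IgG3, rose by 1.81 (SE 0.38, adjusted p = 0.0139) and 1.77 (SE 0.35, adjusted p = 0.00515). Its receptor chain Ifngr1 and the transcription factor Tbx21 also rose in both comparisons. Il4, the cytokine that favors IgG1 and IgE, was under the floor in every group, with means of 0.00436 ± 0.00975 CPM over responders and 0.0141 ± 0.0166 CPM over non-responders, and its receptor Il4ra rose by 0.39 (SE 0.08, adjusted p = 0.0122) and 0.37 (SE 0.07, adjusted p = 0.00515). Il13, Il21, and Cd40lg were also under the floor on average in every group. Tgfb1, a signal for IgA, averaged 68.1 ± 4.77 CPM over responders and 72.7 ± 5.73 CPM over non-responders (log2 fold change -0.10, SE 0.08, adjusted p = 0.454). Over control tumors it averaged 77.8 ± 5.31 CPM, and responders were lower without a call (edgeR, -0.19, SE 0.07, adjusted p = 0.101). The DNA repair genes Ung, Msh6, Exo1, Trp53bp1, and Rif1, which every dividing cell uses, were not called in either comparison.

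The antibody secretion list was dominated by genes that tumor cells also express, such as Hspa5 and Xbp1. Of its 16 tested genes, 2 rose against non-responders and 3 rose and 1 fell against control tumors, with median log2 fold changes of 0.02 and -0.01. Among all genes tested, 5.08% were called higher against non-responders, and 7.88% higher and 5.30% lower against control tumors. Pou2af1, a coactivator of immunoglobulin genes, averaged 0.893 ± 0.310 CPM over responders, 0.206 ± 0.0771 over non-responders, and 0.163 ± 0.0966 over control tumors (log2 fold changes 2.11, SE 0.43, adjusted p = 0.0123, and 2.4, SE 0.40, adjusted p = 0.00210). Irf4, a regulator of plasma cell fate that activated T cells also express, rose by 1.25 (SE 0.28, adjusted p = 0.0175) and 1.41 (SE 0.26, adjusted p = 0.00368). Mzb1, a chaperone of antibody assembly in plasma cells, was called against control tumors (1.74, SE 0.49, adjusted p = 0.0312) and not against non-responders (1.68, SE 0.53, adjusted p = 0.0593). Xbp1 (-0.13, SE 0.10, adjusted p = 0.381), Prdm1 (0.30, SE 0.22, adjusted p = 0.402), and Sdc1 (0.15, SE 0.09, adjusted p = 0.266) were not called against non-responders. Tnfrsf17 averaged 0.616 ± 0.148 CPM over responders, 0.701 ± 0.339 over non-responders, and 0.652 ± 0.106 over control tumors. It was called in neither comparison (edgeR, -0.18, adjusted p = 0.742, and -0.08, adjusted p = 0.878). Ell2 was the gene that fell against control tumors (-0.38, SE 0.12, adjusted p = 0.0460).

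B cell genes did not move as a block. Of 13 tested, 4 rose and 1 fell in responders against non-responders, with a median log2 fold change of 0.30. Among all genes tested, 5.08% were called higher and 4.82% lower. Pax5, the factor that fixes B cell identity, averaged 3.58 ± 0.678 CPM over responders and 1.12 ± 0.695 CPM over non-responders (1.66, SE 0.32, adjusted p = 0.0106), and Cd22, Spib, and Fcrla also rose. Bank1, a scaffold of B cell signaling, was lower in responders, at 1.96 ± 0.214 CPM against 3.48 ± 0.649 CPM (-0.82, SE 0.16, adjusted p = 0.0102). Cd79a and Cd79b, the signaling chains of the B cell receptor, had log2 fold changes of 0.45 (SE 0.35, adjusted p = 0.438) and 0.21 (SE 0.26, adjusted p = 0.642). Ms4a1, the CD20 gene, averaged 0.394 ± 0.212 CPM over responders, 0.0881 ± 0.0599 over non-responders, and 0.0651 ± 0.0795 over control tumors, with log2 fold changes of 2.13 (SE 0.74, adjusted p = 0.0802) and 2.49 (SE 0.70, adjusted p = 0.0300). Ms4a1, which marks mature B cells, was thus near the floor outside responders, in tumors that held 563 to 962 counts of Ighm.

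Precursor B cell and lymph node genes were also measured. Of 7 genes of the surrogate light chain and precursor B cells, 1 was tested and 0 called between responders and non-responders (edgeR, 0 at an unadjusted p under 0.05), and Igll1, Vpreb2, and Rag2 had 0 counts in responders and non-responders. Of the lymph node list, 3 of 8 were tested and 0 called in the same comparison (edgeR, 0 at an unadjusted p under 0.05), and Glycam1 and Chst4 of the high endothelium were at 0 in non-responders and averaged 0.0343 ± 0.0320 and 0.0331 ± 0.0114 CPM over responders, under the floor. The tested genes of that list were above the floor: Cxcl13 averaged 5.52 ± 2.07, 4.87 ± 3.07, and 3.53 ± 1.88 CPM over responders, non-responders, and control tumors, and Ccl21a 0.897 ± 1.002, 0.737 ± 0.145, and 1.08 ± 0.561 CPM. Tnfsf11 averaged 1.14 ± 0.494 CPM over responders and 0.559 ± 0.146 CPM over control tumors, without overlap (log2 fold change 1.03, SE 0.36, adjusted p = 0.0726). The part of such cells in the immunoglobulin values was not tested.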

How the data were processed

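Total RNA of 14 tumors was sequenced as paired-end mRNA libraries. Per the labels and the study's methods, the authors used STAR for alignment (mm10) and RSEM, at default settings, for quantification; the annotation version is not given in the sources used here. The authors deposited, for each tumor, RSEM's expected counts, TPM and FPKM for each Ensembl gene. Expected counts were rounded and tested, TPM was used to compare genes, and FPKM was not used.

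Counts were fitted with edgeR 4.0.16 (R 4.3.3) over all 14 tumors in 3 groups, with TMM factors, filterByExpr and the quasi-likelihood test, and p-values were adjusted by Benjamini-Hochberg over all 16287 genes tested, with 0.05 as threshold. The ratios Ighg1 to Ighm, Ighg2c to Ighg1, and Jchain to Igkc were compared as log2 of TPM + 0.1, by exact permutation, two-sided, of the tumors' groups. Ighg3 and Ighe, which did not pass the filter, were compared the same way in CPM. Totals were 33237744 to 48481461 expected counts, and 3 counts, taken as the floor, are at most 0.0903 CPM. In data simulated on the 16287 genes for responders against non-responders with 200 changed genes, 63% of changes of 1 and 82% of changes of 2 (log2) were recovered, and 2.685% of calls were false.

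Groups came from the labels. Tumors from both flanks of a mouse were kept as separate samples, which share an animal, so that p-values over tumors may be too small. No pair of tumors in a group agreed within sampling noise (lowest chi-square per gene 21.2). The genes and lists were chosen with earlier results of these data known, so that their counts are descriptions. The genes named were the 10 themselves, the defining genes of each list, and, for Igkc, Ighm, and Ighg1, the 5 tested genes outside the immunoglobulins with the highest correlation of log2 CPM. Other list genes that were called or singled out were named after their values were seen. Alternatives were DESeq2 1.42.0, limma 3.58.1 (voom with mouse as a random effect, and log2 TPM + 1 or + 0.1), DESeq2 size factors, no filter or a minimum of 10 counts in 4 tumors, a gene length offset, only the groups compared, 1 tumor per mouse, and leaving out each tumor. In voom the consensus correlation within mice was -0.282, estimated from the mice that gave both tumors. A negative value does not widen the error of a group mean for shared animals. Sequences and positions came from GENCODE vM21 on mm10; promoters and proteins were not used here. Some genes of the lists are counted with them but not reported by name here.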

Additional observations from a re-analysis of the deposited data

Results flagged for a closer look

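In 6 of 51 groups of values tested (a gene's CPM, a share or a ratio in 1 group), a single tumor stood apart from the others of its group by Dixon's criterion, which chance alone meets in about 1 of 20 groups of values without ties. That rate does not hold where all tumors but 1 are at 0, as for Ighg2c in control tumors and Ighe in non-responders. There the tumor with counts is flagged whatever its level, so 6 of 51 cannot be set against that rate. Control tumor 17R was far above the other control tumors for Ighg2b (2.39 CPM) and Ighg2c (0.313 CPM). Non-responder 33R was the highest of its group for Ighg2c (0.158 CPM), and responder 26R for Ighg3 (6.76 CPM). For Ighe, control tumor 14R (0.107 CPM) and non-responder 32R (0.0232 CPM) stood apart, on 5 counts and 1 count.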

How the results depend on the processing

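Ighg1 and Igkc stayed called in responders against both other groups in every alternative run. Between responders and non-responders the number of genes called went from 5 to 8 with DESeq2, Ighg3 included, and to 3 with 1 tumor per mouse, and was 3 to 5 when single tumors were left out (3 without 24L, 32R, or 33R). The log2 fold change between non-responders and control tumors, called in none, changed sign for Ighd (-0.068 with log2 of TPM + 1, -0.19 with TPM + 0.1, and -0.11 to 0.49 with single tumors left out), for Ighg2b (1.47 with voom and mouse as a random effect, 0.33 with TPM + 0.1, and -1.57 to 1.65), for Ighg2c (1.42, 0.17, and -1.24 to 0.083, in the same order), and for Igkc (-0.14 to 0.44 with single tumors left out).

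With TPM + 1, the Ighg2c to Ighg1 ratio differed by -2.92 between responders and non-responders and by -2.66 between responders and control tumors. The Jchain to Igkc ratio differed there by -1.29 between responders and control tumors and by -0.033 between non-responders and control tumors. Those of these differences that involve responders passed with TPM + 1 (exact permutation over 9 tests, adjusted p = 0.0238 for each). They had not passed with TPM + 0.1. After averaging both tumors of a mouse, Ighg1 to Ighm differed by 3.59 between responders and non-responders, by 3.81 between responders and control tumors, and by 0.22 between non-responders and control tumors, Ighg2c to Ighg1 by -0.10 between non-responders and control tumors, and Jchain to Igkc by -0.59 between responders and non-responders. The values with mice averaged did not pass the exact permutation test after adjustment over 9 tests (adjusted p = 0.171 for the 3 that had passed), where 4 mice against 3 cannot give a p below 0.0571. With single tumors left out, Ighg1 to Ighm ranged over 3.07 to 3.85, 2.88 to 3.82, and -0.49 to 0.33 in the 3 comparisons, Ighg2c to Ighg1 over -0.026 to 0.90 between non-responders and control tumors, and Jchain to Igkc over -0.70 to -0.50 and -0.55 to -0.31 between responders and the other groups. By expected counts in place of TPM, Ighm was 82.5% of the heavy chain in non-responders. Leaving out a tumor or averaging mice leaves fewer values, and the added 1 is large beside genes of low level. Beyond this the cause of these changes was not tested.

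No paired analysis was possible because the tumors of a mouse are always in the same group and no number is shared across groups. The depth limits statements on Ighe, Ighg3, Ighg2c, and Ighd, which had few counts in most tumors.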
